A study of Mus musculus with 4 samples.

Results

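The genes described here are 10 parts of the small RNA machinery of the mouse oocyte, *Dicer1*, *Ago2*, *Drosha*, *Dgcr8*, *Piwil2*, *Ddx4*, *Mael*, *Pld6*, *Mov10l1* and *Tdrd9*, taken by name from the 55335 annotated genes of the deposited tables. All 10 names matched 1 row each. The RNA came from oocytes of C57BL/6 mice, amplified with Smart-Seq2, which copies full-length cDNA from very little RNA, and sequenced as 2 control and 2 mutant libraries. In the mutant animals 1 base was changed where exon 3 of *Ezh2*, the gene of the H3K27 methyltransferase, is spliced in alternative ways. Lines for a long and a short form were made, and which of them gave the mutant oocytes is not stated. The sample descriptions carry the tag MII, with WT for controls and Mut for mutants, and give no age. Whether separate animals gave the libraries, and how many oocytes each holds, is not stated, so the p-values below rest on the spread between libraries, which may be technical.

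Small RNAs act as guides that direct Argonaute proteins to matching RNAs. MicroRNA hairpins are cut out of primary transcripts by the Microprocessor, formed by the nuclease DROSHA and its RNA-binding partner DGCR8, and are then trimmed by DICER1. DICER1 also cuts long double-stranded RNA into endogenous small interfering RNAs (siRNAs), which AGO2 uses to slice targets. In mouse oocytes this siRNA route is required while microRNA activity is weak, and oocytes lacking *Dgcr8* still mature. The piRNA pathway silences transposons with PIWI proteins and is best known from the male germ line, where loss of *Piwil2*, *Mael*, *Mov10l1* or *Tdrd9* stops sperm formation.

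The piRNA genes share a promoter feature that the choice by name did not use, and the stretches that carry it are shown for that reason. RefSeq promoter windows (GRCm38.p6, 250 bases before to 50 after a start) matched 8 of the 10 genes, with 2 starts for *Pld6*. The E-box CACGTG, a palindrome that basic helix-loop-helix factors bind, occurred in all 5 piRNA genes with a window and in none of the 3 microRNA genes with one. Over all genes with a window 8.09% held it, and 11.8% of genes whose window had at least 10 CpG. In the stretches below the capitals mark the E-box, with up to 30 bases on each side, read 5′ to 3′ on the strand of the gene.
Ddx4, chr13:112652304-112652369, minus strand: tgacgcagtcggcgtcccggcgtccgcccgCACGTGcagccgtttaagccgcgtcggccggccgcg
Mael, chr1:166238932-166238994, minus strand: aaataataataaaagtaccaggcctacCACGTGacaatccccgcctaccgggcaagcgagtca
Pld6, chr11:59787655-59787720, minus strand: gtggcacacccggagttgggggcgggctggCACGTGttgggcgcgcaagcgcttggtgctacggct
Mov10l1, chr15:88982744-88982783, plus strand: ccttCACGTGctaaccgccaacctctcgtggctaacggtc
Tdrd9, chr12:111971364-111971429, plus strand: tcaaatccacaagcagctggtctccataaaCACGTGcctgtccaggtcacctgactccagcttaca
Tdrd9, chr12:111971434-111971499, plus strand: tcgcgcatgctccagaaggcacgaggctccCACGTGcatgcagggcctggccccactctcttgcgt

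The E-box began 29 bases before the start in *Ddx4* and 33 bases before the upstream start of *Pld6*, and 223 and 246 bases before it in *Mael* and *Mov10l1*. *Tdrd9* held 2 copies, at 165 and 95 bases before the start. The match of *Mov10l1* lies at the edge of its window, so the placement varied from next to the start to the far end. Among the other piRNA pathway genes listed further on, 6 of 25 held the motif (*Piwil1*, *Tdrd1*, *Fkbp6*, *Wdr77*, *Stk31* and *Ddx25*), as did 4 of 30 other microRNA and RNA interference genes. The CCAAT box, written CCAAT or ATTGG, occurred in all 8 genes with a window against 41.1% of all genes. Of the other pathway genes, 13 of 30 microRNA and RNA interference genes and 9 of 25 piRNA genes held it. Those shares are near that of all genes, so the box was not common to the pathways. Each of the 8 had a window of at least 10 CpG, and 38.2% of all such genes held the box. The E2F motif GCGGGAA, or TTCCCGC, was found in *Ddx4* alone (5.29% of all genes, 10.1% of those with at least 10 CpG). The form GGCGGGAA, which contains that motif, was in *Ddx4* as well (2.52% and 4.85%). TATAAA was in none of the 8 genes (15.7% and 6.13%), nor was an extended E2F motif (0.0555% and 0.0888%). All 6 motifs were searched on both strands. These matches describe letters in a window and say nothing about binding.

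**Figure D1:**
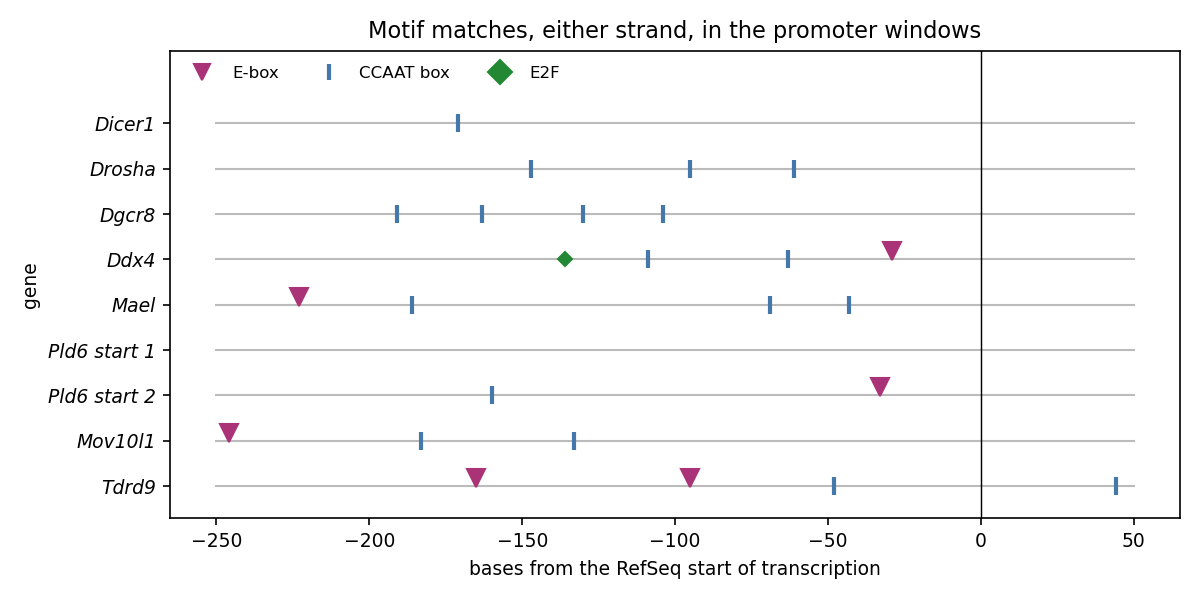
Positions of motif matches in the RefSeq promoter windows of 8 genes; the x axis gives bases from the start of transcription and each row is 1 window. E-boxes (triangles) stand in rows of all 5 piRNA genes and in no row of *Dicer1*, *Drosha* or *Dgcr8*, whereas CCAAT boxes (bars) occur in all 8 genes.

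The libraries held 25090032 to 26617816 counts. All 12 oocyte markers, among them the zona pellucida genes and *Gdf9*, were above 0 in every library and summed to between 14410 and 16894 CPM (counts scaled to library size by TMM). Markers of other cells differed between the mutant libraries, and some also between the groups. The 16 cumulus and granulosa markers summed to 45.6 and 14.3 CPM in the controls, 411 CPM in mutant 1 and 26.0 CPM in mutant 2, with 4, 8, 0 and 4 of them at 0. The 10 leukocyte markers summed to 4.11 and 5.24 CPM in the controls, 14.6 CPM in mutant 1 and 139 CPM in mutant 2, with 6, 8, 2 and 0 at 0. *Amh* and *Amhr2* were at 0 outside mutant 1, and *Ptprc* was at 0 in both controls. The edgeR test described below called 2 of the 4 tested leukocyte markers higher in mutants, and 0 of the 11 tested cumulus and granulosa markers. *Lyz2* had 9 and 1 counts in controls, against 226 and 102 in mutants (edgeR, adjusted p = 0.0437). *Cd74* had 0 in both controls, against 76 and 27 (edgeR, adjusted p = 0.0428). Both rose in each mutant, so leaving out 1 mutant library does not remove this difference. The part of such cells in the results below was not tested, and values without each mutant library are given where they matter. In bulk RNA, fewer oocytes and less RNA per oocyte cannot be told apart.

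None of the 10 genes passed the test for a difference between mutant and control oocytes. The test covered 9 of them, and *Pld6* had too few counts. It was the edgeR quasi-likelihood test with Benjamini-Hochberg adjustment over 15493 genes, which called 3.75% of all tested genes, 1.77% higher and 1.98% lower in the mutants. At an unadjusted p under 0.05 the test passed 1 of the 9, *Mov10l1*, against 23% of all tested genes. DESeq2 and limma trend also called 0 of them, against 12.9% and 4.76% of all tested genes. Run on the RSEM expected counts, edgeR called 0 of them as well, against 3.89% of all genes tested there. The fold changes ran from -1.39 to 0.55 on the log2 scale, with 4 positive and 5 negative, and their median was -0.13 against 0.05 over all tested genes. For 7 of the 9 the groups were fully apart, 4 higher and 3 lower in the mutants, and 54.6% of all tested genes were apart in this way. With 2 libraries against 2, an exact two-sided permutation test of a single value cannot go below p = 0.333.

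**Figure D2:**
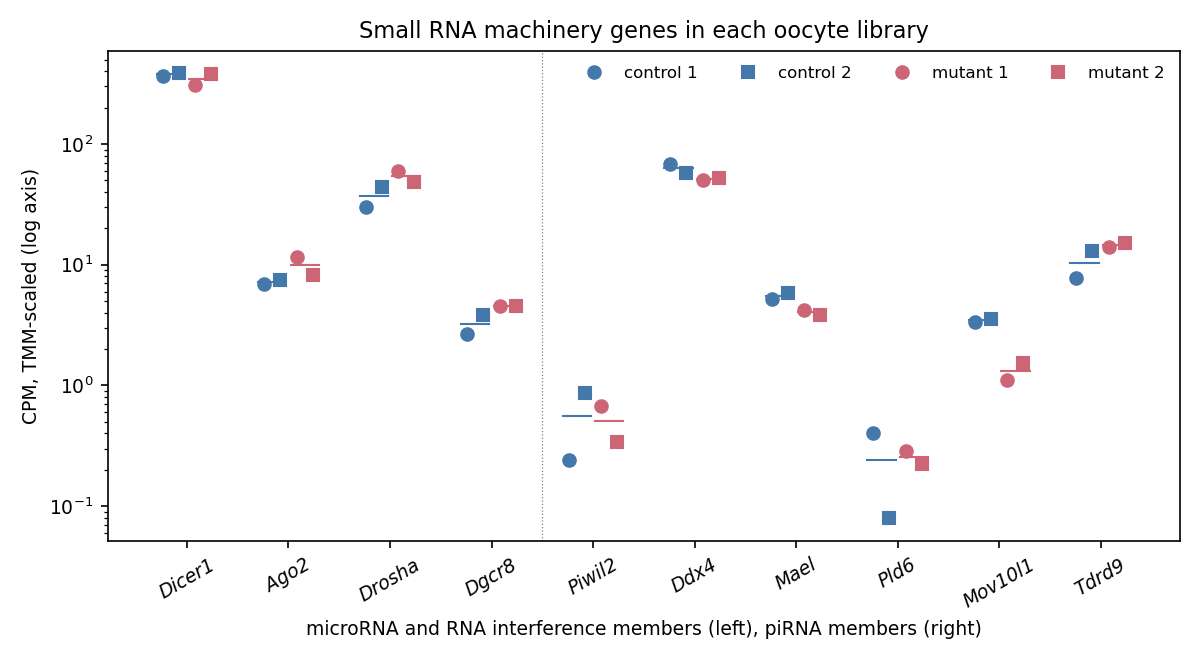
TMM-scaled CPM of the 10 genes in each library on a log axis; blue is control, red is mutant, circles and squares are libraries 1 and 2, and horizontal lines are group means. *Dicer1* lies between 306 and 388 CPM in all libraries, and *Mov10l1* is lower in both mutants (1.10 and 1.54 CPM) than in both controls (3.34 and 3.57 CPM).

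*Dicer1* (chromosome 12, 104687742 to 104751952, mm10, minus strand) was the most abundant of the 10 genes. It was read at 368 CPM in control 1, 388 in control 2, 306 in mutant 1 and 383 CPM in mutant 2. Mutant 1 was the lowest library and mutant 2 lay between the controls, so the groups overlapped. The means were 377.9 ± 13.8 and 344.2 ± 54.5 CPM (SD, n = 2 each). Its log2 fold change was -0.13 with a 95% interval of -0.52 to 0.26 (edgeR, adjusted p = 0.678). The interval leaves room for a fall to 0.695 times or a rise to 1.19 times the control level. *Dicer1* made up 74.6% and 74.1% of the summed CPM of the 10 genes in controls, against 67.5% and 74.0% in mutants.

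The deposited RSEM length of a gene, an average over its transcripts weighted by their estimated share, gives a second reading of *Dicer1*. It was 5864 and 5895 bases in controls 1 and 2 and 6814 and 6341 bases in mutants 1 and 2. Both mutants were thus above both controls, as were 25.2% of the 5735 genes with at least 100 expected counts in every library whose length varied. The annotation lists 6 *Dicer1* transcripts of 647 to 9851 bases. Oocytes are known to use a shortened DICER1 that starts from a retrotransposon promoter inside the gene, and the tables hold no values per transcript, so its share was not measured.

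*Ago2* (chromosome 15, 73095844 to 73184935, minus strand), which encodes the slicing Argonaute, had a low level and was higher in both mutants. It was at 6.93 and 7.42 CPM in controls, against 11.7 and 8.26 CPM in mutants. The groups did not overlap, and mutant 1, the library with the most cumulus marker RNA, was the highest. The log2 fold change was 0.48 (95% interval -0.28 to 1.23, adjusted p = 0.422). It was 0.19 without mutant 1 and 0.69 without mutant 2. In deposited TPM the order changed, with 3.93 and 7.91 in controls, against 3.91 and 5.92 in mutants. The RSEM length of *Ago2* went from 1318 bases in control 2 to 4209 bases in mutant 1, between annotated transcripts of 616 and 13800 bases. Its TPM therefore moved with the estimated transcript mix as well as with its reads. The matrix also held 1.27 to 1.48 times as many *Ago2* counts as RSEM, and 219 exon bases are shared with *Chrac1* on the other strand, which had 3 to 24 counts.

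The Microprocessor genes were higher in both mutants without passing the test. *Drosha* (chromosome 15, 12824815 to 12935291, plus strand) was at 30.1 CPM in control 1, 43.9 in control 2, 60.0 in mutant 1 and 48.4 CPM in mutant 2. Control 1 stood below the other 3 libraries, and control 2 was close to mutant 2. The means of 37.0 ± 9.76 and 54.2 ± 8.25 CPM (SD, n = 2 each) gave a log2 fold change of 0.55 (95% interval -0.02 to 1.12, adjusted p = 0.230). The value was 0.29 without control 1 and 0.80 without control 2. Without mutant 1, the value for *Drosha* was 0.37.

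*Dgcr8* (chromosome 16, 18253948 to 18289246, minus strand) was at 2.66 and 3.81 CPM in controls, against 4.58 and 4.55 CPM in mutants. As for *Drosha*, control 1 was the lowest library and both mutants were above both controls. On the log2 scale the fold change was 0.50 (95% interval -0.45 to 1.45, adjusted p = 0.510). It was 0.25 without control 1 and 0.73 without control 2. In deposited TPM the gene was at 3.93 and 8.30 in controls, against 12.4 and 13.7 in mutants. The RSEM length of *Dgcr8* was 1558 and 1298 bases in controls, against 1248 and 1109 bases in mutants. Its TPM therefore moved with the estimated transcript mix as well as with its reads. RSEM gave *Dgcr8* more reads than the matrix, which held 0.655 to 0.742 times as many. The gene shares exon bases with several others, namely 327 with *Gm49776* on the same strand, 825 with *Trmt2a* on the opposite strand and 79 with the microRNA gene *Mir1306*. *Gm49776* had 190 counts in control 1, 209 in control 2, 437 in mutant 1 and 219 in mutant 2, more than *Dgcr8* in every library. *Mir1306* itself had 12 counts in control 1, 29 in control 2, 44 in mutant 1 and 42 in mutant 2. Reads from shared bases cannot be assigned to 1 gene, so the level of *Dgcr8* is uncertain.

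Among the piRNA genes, *Mov10l1* (chromosome 15, 88982909 to 89055152, plus strand), an RNA helicase that binds piRNA precursors, had the largest difference. It had 83 counts in control 1, 90 in control 2, 31 in mutant 1 and 41 in mutant 2. Scaled to library size these were 3.34 and 3.57 against 1.10 and 1.54 CPM, with every mutant below every control. The means were 3.46 ± 0.162 and 1.32 ± 0.311 CPM (SD, n = 2 each). In the fit this was -1.39 on the log2 scale (SE 0.47, 95% interval -2.50 to -0.27), and it did not pass over all genes (edgeR, adjusted p = 0.143). With the RSEM counts it was -1.37 (adjusted p = 0.180). With 1 library left out it ran from -1.18 without mutant 1 to -1.66 without mutant 2. In deposited TPM *Mov10l1* was at 1.08 and 1.95 in controls, against 1.02 and 0.60 in mutants, and its RSEM length ran from 2096 bases in mutant 1 to 4127 bases in control 1.

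The genes whose profile over the 4 libraries was most like that of *Mov10l1* were sought among the 6532 tested genes averaging 10 CPM or more, by the root mean square difference of log2 CPM centred on each gene's mean. The nearest were *Slc43a3* (0.0408 log2 units), *Gm32687* (0.0409) and *Gm37457* (0.0420). *Slc43a3*, a membrane transporter gene, was at 127.9 and 140.1 CPM in controls, against 44.1 and 64.8 CPM in mutants. Over 4 points this describes the profile only.

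*Ddx4* (chromosome 13, 112598333 to 112652475, minus strand), the germ cell RNA helicase also called VASA, was the most abundant piRNA gene of the 10. It was at 68.9 and 57.0 CPM in controls, against 50.7 and 51.9 CPM in mutants. The mutants were close to each other and below both controls, of which control 1 was the higher. This gave a log2 fold change of -0.30 (95% interval -0.71 to 0.12, adjusted p = 0.356). It was -0.16 without control 1 and -0.47 without control 2.

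*Mael* (chromosome 1, 166201201 to 166238747, minus strand), which encodes the maelstrom protein of germ granules, was at 5.19 and 5.79 CPM in controls, against 4.23 and 3.87 CPM in mutants. Again both mutants were below both controls, with a log2 fold change of -0.44 (95% interval -1.28 to 0.39, adjusted p = 0.506). *Tdrd9* (chromosome 12, 111971559 to 112068854, plus strand), a Tudor domain helicase, went the other way. It was at 7.81 and 13.1 CPM in controls 1 and 2, with 13.99 and 15.2 CPM for the mutant pair. Control 1 was far below the rest and control 2 was near mutant 1. The log2 fold change of 0.48 (95% interval -0.29 to 1.25, adjusted p = 0.422) was 0.15 without control 1 and 0.85 without control 2.

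The last 2 genes were near the limit of detection. *Piwil2* (chromosome 14, 70372477 to 70429383, minus strand), the PIWI protein MILI, had 6 counts in control 1, 22 in control 2, 19 in mutant 1 and 9 in mutant 2. The group sums were 28 counts each, a ratio of 0.913 after scaling with an exact 95% counting interval of 0.521 to 1.60. *Pld6* (chromosome 11, 59783897 to 59787645, minus strand), the nuclease also called zucchini that shapes piRNA ends, had 10 counts in control 1, 2 in control 2, 8 in mutant 1 and 6 in mutant 2. Its ratio was 1.07, with a counting interval of 0.457 to 2.52. The control libraries differed from each other more than the groups did, and amplified reads are not independent molecules, so these intervals cover counting error only. For *Pld6*, counting error alone leaves room for a fall to 0.457 or a rise to 2.52 times the control level. The spread between libraries adds to this, so larger changes may also have gone undetected.

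**Figure D3:**
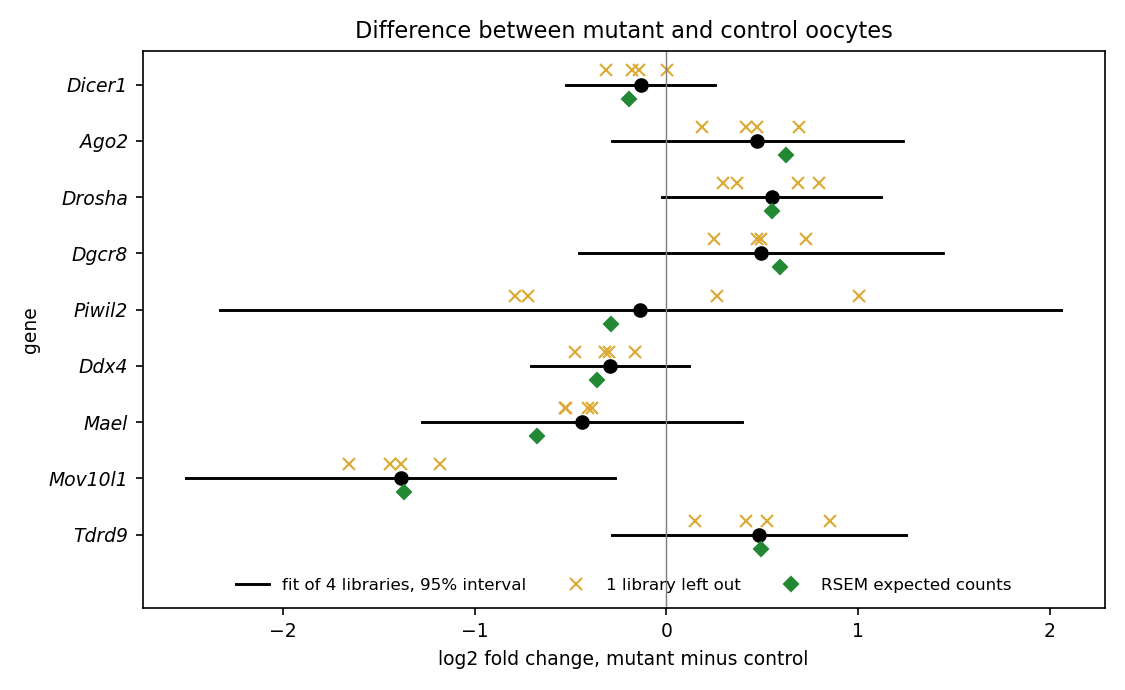
Log2 fold change (mutant minus control) of the 9 tested genes; black points and lines give the fit of 4 libraries with its 95% interval, crosses the fits with 1 library left out, and diamonds the fit of RSEM expected counts. The interval of *Mov10l1* (-2.50 to -0.27) lies below 0, those of the other 8 genes include 0, and *Piwil2* changes sign when a library is left out.

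Levels can be compared between genes only per length. In deposited TPM the order of the means over the 4 libraries was *Dicer1* (86.5), *Ddx4* (28.4), *Drosha* (26.5), *Dgcr8* (9.57), *Ago2* (5.42), *Mael* (5.08), *Tdrd9* (3.61), *Mov10l1* (1.1625), *Piwil2* (0.433) and *Pld6* (0.193). Ranges over the 4 libraries were apart between *Dicer1* (69.3 to 97.5 TPM) and *Ddx4*, and between *Tdrd9* (1.97 to 4.44 TPM) and *Mov10l1*, and those of all other neighbours overlapped. Within each library *Drosha* was still above *Dgcr8*, and *Mov10l1* above *Piwil2*. Per kilobase of the longest coding transcript, matrix CPM gave *Dicer1* a mean of 36.7, *Ddx4* 19.0 and *Drosha* 9.98, and the ranges of these 3 did not overlap. On this second scale *Mael* (2.82 CPM per kb) and *Tdrd9* (2.60 CPM per kb) came before *Dgcr8* (0.902), *Ago2* (0.621) and *Mov10l1* (0.578), and *Dgcr8* moved from the fourth to the sixth place. The scales differ both in transcript length and in the counts used, so the order of the low genes is uncertain. *Drosha* was above *Ddx4* in mutant 1 in TPM (37.9 against 26.2) and below it in every library in CPM per kb.

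**Figure D4:**
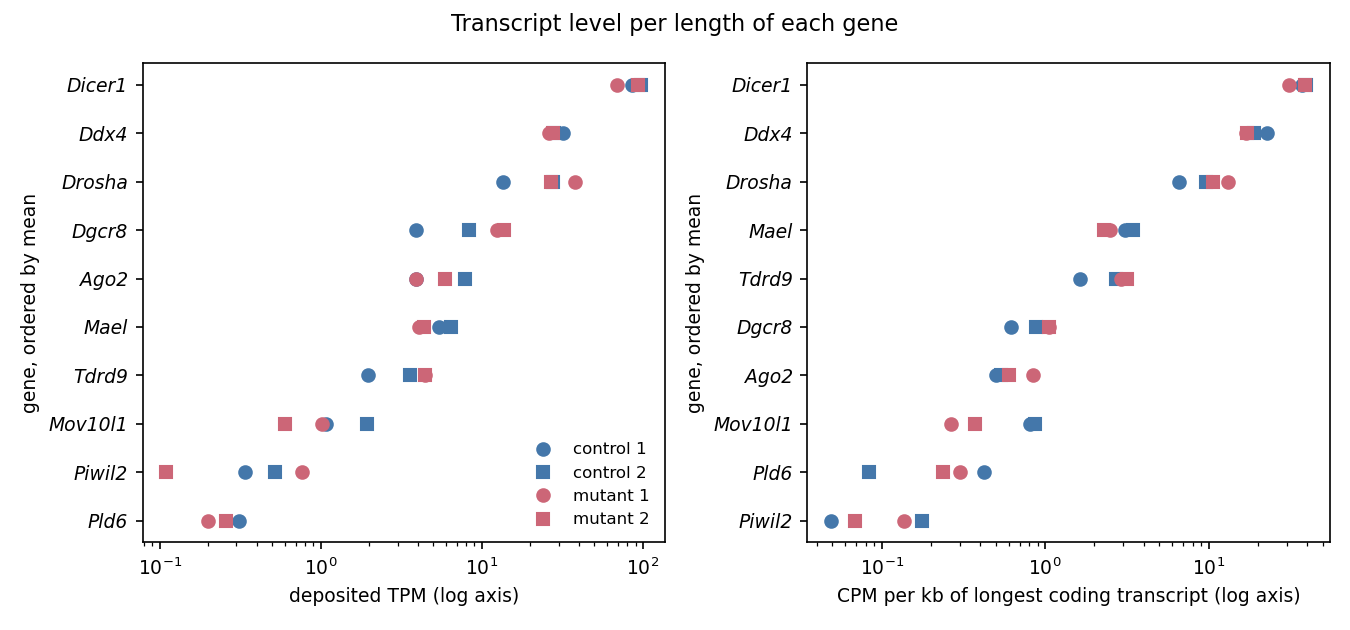
Level per length of the 10 genes in each library on log axes, as deposited TPM (left) and as matrix CPM per kb of the longest coding transcript (right), ordered by mean; control 2 of *Pld6* is at 0 TPM and is not drawn. *Dicer1* is highest on both scales, and *Dgcr8* and *Ago2* rank lower on the right.

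The wider microRNA and RNA interference pathway gave no call either. Of 39 listed genes 38 were tested, and 0 were higher or lower at the threshold by edgeR (1.77% and 1.98% of all tested genes were called higher and lower). At an unadjusted p under 0.05, 7 were higher and 1 lower, a share near the 23% of all tested genes. DESeq2 called 3 higher (*Tnrc6a*, *Srrt* and *Fkbp4*) and 1 lower (*Ago3*), also near its share of 12.9% of all tested genes. Limma trend called *Srrt* alone, and 4.76% of all genes. The median log2 fold change was 0.32 with 28 of 38 positive, against 0.05 and 53.3% over all tested genes. Without mutant 1 the median was 0.16, against -0.01 over all tested genes. Without mutant 2 it was 0.37, against 0.03. The most abundant genes beyond the 10 were *Hsp90ab1*, a chaperone that loads Argonautes, and *Ddx5*, a helicase that works with the Microprocessor. *Hsp90ab1* was at 586 and 490.2 CPM in controls, against 578 and 460.5 CPM in mutants (log2 fold change -0.05, adjusted p = 0.897), and *Ddx5* at 440.4 and 404 against 533 and 550.3 CPM (0.36, adjusted p = 0.195).

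Some genes of this list are named after their values were seen. Of the Argonaute genes, *Ago3* was by far the most abundant, with a mean of 123 TPM against 5.42 for *Ago2*, 0.573 for *Ago4* and 0.105 for *Ago1*. *Ago3* was at 270.3 and 247 CPM in controls, against 173 and 185 CPM in mutants. Both mutants were below both controls, opposite to *Ago2*, and the log2 fold change of -0.53 had an adjusted p of 0.0848. *Srrt*, which encodes the ARS2 protein that hands capped primary transcripts to the Microprocessor, was at 2.09 and 2.30 CPM in controls, against 9.62 and 6.50 CPM in mutants (log2 fold change 1.87, adjusted p = 0.0550). *Tnrc6a*, which encodes the GW182 partner of Argonautes, was at 12.6 and 8.77 against 22.5 and 23.3 CPM (1.10, adjusted p = 0.0711). *Srrt* passed without mutant 1 (adjusted p = 0.0264) and without mutant 2 (adjusted p = 0.0302), and *Tnrc6a* passed without mutant 1 (adjusted p = 0.0250). *Fkbp4* passed without mutant 1 (adjusted p = 0.00605), where 10.2% of all genes tested were called. Over the left-out libraries the count of called genes on this list ran from 0 to 3.

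The wider piRNA pathway held 1 called gene, a share near that of all tested genes. Of 38 listed names 37 matched a gene and 31 were tested, with 0 higher and 1 lower at the threshold, against 1.77% and 1.98% of all tested genes. The median log2 fold change was 0.02, with 16 positive and 15 negative, against 0.05 and 53.3% positive over all tested genes. The gene that fell was *Tex19.1* (chromosome 11, 121146143 to 121148319, plus strand), a germ cell gene that restrains retrotransposons. It was at 37.5 CPM in control 1, 39.9 in control 2, 18.8 in mutant 1 and 16.5 CPM in mutant 2. All libraries of a group were close to each other and the groups were well apart, at 38.7 ± 1.69 and 17.6 ± 1.65 CPM (SD, n = 2 each). In the fit this was -1.14 on the log2 scale (SE 0.20, 95% interval -1.61 to -0.67, adjusted p = 0.0370), and -1.46 with the RSEM counts (adjusted p = 0.0189). The call was lost without control 1 (adjusted p = 0.283), without control 2 (0.289) and without mutant 2 (0.0627), and with library totals as the only scaling (0.0629), while the fold change stayed between -1.46 and -1.04 under all alternatives run. It passed without mutant 1 (adjusted p = 0.00321). The neighbouring paralog *Tex19.2* had 0 counts in the controls and at most 16 in a mutant library.

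The most abundant piRNA pathway genes were not members of the 10. *Asz1* was at 629 TPM, *Gtsf1* at 232 TPM and *Rnf17* at 203 TPM over the 4 libraries, against 28.4 TPM for *Ddx4* and 0.433 TPM for *Piwil2*. ASZ1 is an ankyrin repeat protein of mitochondrial membranes in germ cells, GTSF1 a zinc finger partner of PIWI proteins and RNF17 a Tudor domain protein. Their log2 fold changes were -0.18, 0.02 and -0.30 (adjusted p = 0.571, 0.947 and 0.308). Of the PIWI genes, *Piwil1* was at 7.61 and 13.1 CPM in controls, against 10.5 and 10.4 CPM in mutants, and *Piwil4* had 22 counts in control 1 and 0 to 2 in the other libraries. *Wdr77*, the partner of the arginine methyltransferase PRMT5, was at 0 in both controls and had 16 and 24 counts in the mutants. With 3 counts over the control group assumed as a floor, *Wdr77* was 12.3-fold higher. The lower limit of its exact counting interval was 9.45-fold, which covers counting error only. The difference did not pass (edgeR, adjusted p = 0.0661). The matrix held 0.516 to 0.558 times as many *Wdr77* counts as RSEM. *Wdr77* was called by DESeq2 (adjusted p = 0.0285), on the RSEM counts (0.0442) and without mutant 1 (0.0452). *Kif17* was at 121 and 155 against 88.3 and 79.9 CPM (log2 fold change -0.71, adjusted p = 0.0743). *Kif17* was called by DESeq2 (adjusted p = 0.00383), without mutant 1 (0.0465) and with no filter on low counts (0.0387), which called 5.01% of all genes. These genes, apart from *Tex19.1*, were named after their values were seen.

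**Figure D5:**
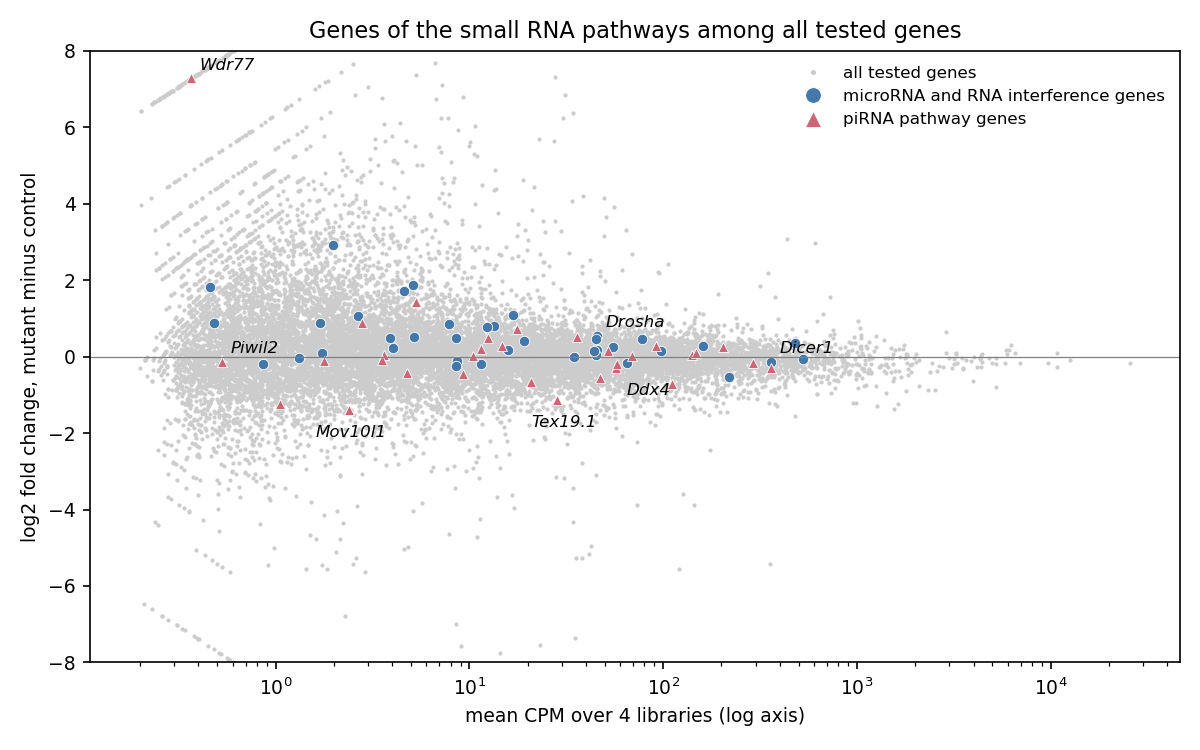
Log2 fold change (mutant minus control) against mean CPM on a log axis for all tested genes (grey), the microRNA and RNA interference list (blue circles) and the piRNA list (red triangles); 94 genes beyond 8 on the vertical axis are not drawn. *Tex19.1* at -1.14 is the called gene of the 2 lists, and the fitted value of *Wdr77*, at 0 in both controls, depends on the prior count.

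Genes known to pair with endogenous siRNAs in oocytes, and so to respond to loss of *Dicer1* or *Ago2*, did not pass. All 5 tested genes had a positive log2 fold change, with a median of 0.58, and edgeR called 0 of them, with 0 at an unadjusted p under 0.05. Over all tested genes 53.3% were positive with a median of 0.05, 3.75% were called and 23% had an unadjusted p under 0.05. *Kif4* was at 394 and 364 CPM in controls, against 403 and 442 CPM in mutants (log2 fold change 0.16, 95% interval -0.19 to 0.50), and *Pdzd11* at 37.0 and 35.2 against 45.6 and 41.6 CPM (0.27, 95% interval -0.14 to 0.69). The matrix held 2.42 to 3.83 times as many *Pdzd11* counts as RSEM. With the RSEM counts the log2 fold change of *Pdzd11* was -0.04, so its sign is uncertain. The others were *Ppp4r1* (0.58, 95% interval -0.39 to 1.54), *Rangap1* (0.83, -0.59 to 2.26) and *Hdac1* (0.94, -0.05 to 1.94). For *Ppp4r1* and *Rangap1* the groups overlapped. DESeq2 and limma trend also called 0 of the 5, against 12.9% and 4.76% of all tested genes. *Rangap1* was at 2.05 and 3.85 CPM in controls, against 2.84 and 7.70 CPM in mutants. Without mutant 1 its log2 fold change was 1.37, a value that rests on mutant 2 alone. The endogenous siRNAs themselves are outside what these libraries measured.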

How the data were processed

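Smart-Seq2 libraries of mouse oocytes, 2 control and 2 mutant, were grouped by their titles. Raw gene counts, whole and not normalized, were deposited in 1 matrix by the authors, and per the file headers RSEM tables with expected counts, TPM and gene lengths. Other units deposited by the authors, such as the lengths in bases, were used as they stood. Cutadapt 1.16, STAR, RSEM and mm10 are named per the submitters' processing notes. Settings, the counter behind the matrix and strand use are not stated there, so overlapping genes and near-identical copies are uncertain.

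For the matrix, genotype was the only term of a quasi-likelihood fit (glmQLFit, glmQLFTest) by edgeR 4.0.16 under R 4.3.3, after filterByExpr and TMM, at an adjusted p under 0.05 and with 2 residual degrees of freedom. The SE is the log2 fold change divided by the square root of F, and the 95% interval uses edgeR's moderated degrees of freedom. The code was tested on simulated data. Alternatives used DESeq2 1.42.0, limma 3.58.1 trend on log2 CPM (prior count 2), other scalings and filters, RSEM expected counts rounded to whole numbers, a replicate block and each library left out. Coordinates and transcript lengths are from GENCODE M21 (mm10) and promoters from RefSeq (GRCm38.p6). Motifs were searched with Python 3.11.15.

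The 10 genes and the lists were chosen with earlier results of these data known. Beyond the 10 genes, the rule named the called genes of each list, or its 2 most abundant by TPM where none was called, and the 3 genes most like the member with the smallest adjusted p. One listed name, *Tdrd15*, matched no gene.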

Additional observations from a re-analysis of the deposited data

How the results depend on the processing

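The count of called genes among the 10 was 0 under all 14 alternatives. With 1 library left out, calls over all genes (581 as reported) ran from 22 without control 1 to 1688 without mutant 1, on the microRNA and RNA interference list from 0 to 3 and on the piRNA list from 0 to 3. Over all genes DESeq2 called 1993, no filter on low counts 1322 and the replicate block 1213. On the microRNA and RNA interference list DESeq2 called 4 of 38 and limma trend 1 of 38, against 12.9% and 4.76% of all genes. The replicate block called 3 of 38, against 1213 of 15493 genes. Genes of at least 10 CPM gave 1 of 21, against 620 of 6541, and no filter 2 of 39, against 5.01%. On the piRNA list DESeq2 called 4 of 31, against 12.9% of all genes. The RSEM counts gave 2 of 31 and no filter 2 of 36, against 3.89% and 5.01%. Library totals alone gave 0 of 31, against 419 of 15493. The cause was not tested. Log2 fold changes that crossed 0 were those of *Dicer1* (-0.315 to 0.00115 with 1 library left out), *Piwil2* (0.0220 with limma trend, 0.0140 with the replicate block, -0.789 to 1.003 with 1 library left out), *Hsp90ab1* (0.0487 with library totals, -0.244 to 0.0930 with 1 library left out) and *Pdzd11* (-0.0436 with RSEM counts). Those of *Ago2*, *Drosha*, *Dgcr8*, *Tdrd9*, *Ddx4*, *Mael* and *Mov10l1* kept their sign under every alternative that tested them. The median of the 9 tested genes had no stable sign, with 0.48 without control 2 and -0.20 with RSEM counts. Replicate numbers are not said to pair the libraries. Differences between libraries 1 and 2 correlated at 0.18 across genes between the groups. With 2 libraries a group, most members' 95% intervals span more than 1 log2 unit, and *Piwil2* and *Pld6* are limited by depth.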
